A study of Homo sapiens with 12 samples.

Results

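The centromere and kinetochore genes described here are 34 genes chosen by name for the proteins they encode. The choice was made with earlier results of these data known. All 34 symbols were found in the deposited table, which holds 57773 gene identifiers. The cells were RPE1, an immortalised human line from retinal pigment epithelium, and every library came from a 24 h siRNA transfection followed by 60 min in 2 µg/mL Hoechst, a DNA dye, and sorting by DNA content. The 4 groups, of 3 RNA-seq libraries each, were Anillin siRNA cells sorted at 4N (Anillin 4N), Anillin siRNA cells sorted at 2N (Anillin 2N), cells given a non-targeting siRNA and sorted at 4N (control 4N) and the same sorted at 2N (control 2N). Anillin is a scaffold of the contractile ring, and its loss makes cytokinesis fail, so that a cell keeps a doubled genome. The 2N and 4N gates sort by DNA content alone: a control 4N gate takes G2 and mitotic cells, and after failed cytokinesis the gate can also take G1 cells with a doubled genome. The labels do not say whether the libraries of a group came from separate cultures, so p-values measure the spread between these libraries. Nor do they say whether 2N and 4N libraries came from the same cultures. They do not name the siRNA sequences.

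Centromeres are marked by nucleosomes that hold the histone H3 variant CENP-A, which HJURP and the Mis18 complex place there after each division. On these nucleosomes sits the constitutive centromere-associated network, a set of CENP proteins present through the cell cycle. In mitosis it carries the outer kinetochore, made of the MIS12, KNL1 and NDC80 complexes, which holds the microtubules with help from the SKA complex. Many of these genes are transcribed most in G2 and mitosis, and CHR and CCAAT sites in their promoters are known to be read by MuvB complexes and NF-Y.

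Reads in genes numbered from 17412742 to 61760451 per library. Values are given as RPM, a gene's whole reads recovered from the deposited RPKM, per 1000000 reads in genes after division by the authors' scaling, and not divided by gene length, so levels are compared between groups and not between genes. Each member had at least 28 reads in each of the 12 libraries, and all 34 passed the filter on low values. ANLN, which encodes Anillin, had 6.33, 5.47 and 4.48 RPM in Anillin 4N and 5.44, 3.72 and 2.53 RPM in Anillin 2N, against 539, 477 and 511 RPM in control 4N and 121, 79.97 and 107 RPM in control 2N. Of 8 markers of retinal pigment epithelium, OTX2 and MITF were expressed (means of 33.03 to 43.6 RPM and 26.2 to 32.5 RPM by group), RPE65, BEST1, RLBP1 and PMEL were below 2 RPM in each group mean, and TYR and TTR were at or near 0. Of 4 blood markers CD68 alone was above 1 RPM, and HBB and CD3E were at 0.

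The main comparison set cells sorted at 4N after Anillin siRNA against 4N cells of control cultures. Transcripts of 33 of the 34 members fell, and 26 of them fell at least 2-fold. Among all 19591 genes tested, 28.1% fell and 3.17% fell at least 2-fold. The median log2 change of the members was -1.58, against -0.0016 over all genes tested. The largest falls were those of HJURP, NUF2, NDC80, SPC25, SKA1, CENPF, KNL1, CENPI and ZWINT, from -2.93 for HJURP to -2.500 for ZWINT on the log2 scale. The smallest were those of CENPT, NSL1, CENPC and CENPB, and PMF1 did not pass the test. In 33 members every Anillin 4N library lay below every control 4N library, as it did for 31.7% of all genes tested. No member rose, against 24.5% of all genes tested. Changes are log2 differences of RPM + 0.5 from limma-trend, ± SE, with Benjamini-Hochberg adjustment over all genes tested and a threshold of 0.05. In bulk libraries, fewer cells of a phase and less RNA per cell cannot be told apart. The summed level of 7 G2 and mitosis markers outside the list moved with these genes, at 422 to 462 RPM in Anillin 4N, 138 to 145 in Anillin 2N, 3106 to 3473 in control 4N and 392 to 556 in control 2N. Of 14 G1/S and replication genes 13 fell too, by a median log2 change of -1.57, with sums of 414 to 459.7 RPM in Anillin 4N and 1156 to 1449 RPM in control 4N. All 4 replication-dependent histone genes tested rose (sums of 63.01 to 67.4 RPM in Anillin 4N and 32.9 to 40.8 RPM in control 4N). The part of these 3 lists in the result was not tested.

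**Figure D1:**
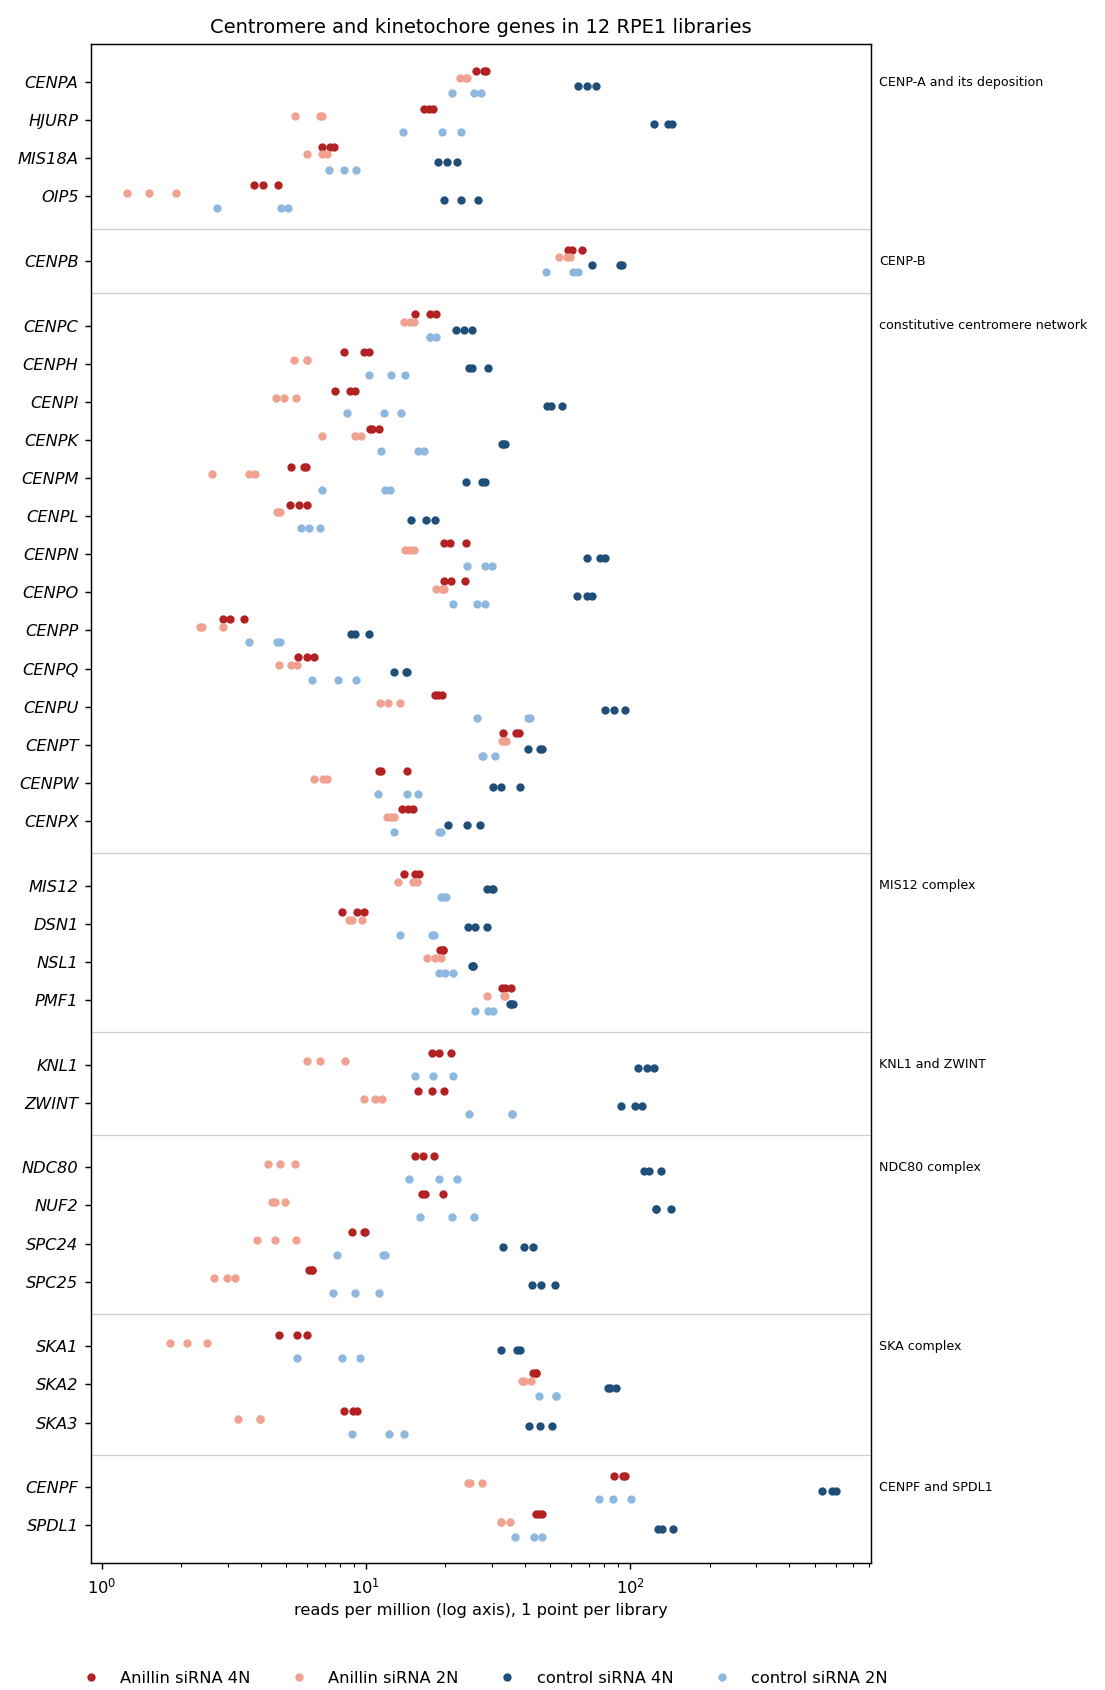
RPM (log axis) of each of the 34 genes, in rows grouped by role, with 1 point per library and 1 colour per group (3 libraries each). The control 4N points lie to the right of the other 3 groups for all members but PMF1, whose Anillin 4N and control 4N points overlap.

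CENP-A and the proteins that deposit it fell together, 4 of 4. HJURP, the chaperone that carries CENP-A to the centromere, had 17.3, 16.6 and 17.97 RPM in the Anillin 4N libraries, against 144, 123 and 139 RPM in control 4N. Among 2N cells HJURP had 6.83, 6.68 and 5.37 RPM in the Anillin 2N libraries, against 22.9, 13.8 and 19.4 RPM in control 2N. The control 4N libraries stood far above the rest, and Anillin 4N lay within the range of control 2N. The log2 change between the 4N groups was -2.93 ± 0.13 (adjusted p = 9.85e-13), the largest among the members.

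CENPA, which encodes the histone variant itself, had 26.1, 27.97 and 28.5 RPM in the Anillin 4N libraries, against 74.3, 63.5 and 68.8 RPM in control 4N. Among 2N cells CENPA had 22.7, 24.2 and 23.9 RPM in the Anillin 2N libraries, against 27.3, 21.2 and 25.6 RPM in control 2N. Anillin 4N libraries lay below every control 4N library and near both 2N groups, and the log2 change was -1.31 ± 0.08 (adjusted p = 1.28e-10). The span counted for CENPA (ENSG00000115163, chromosome 2 from 26764289 to 26801067 on GRCh38) takes in SLC35F6, a transporter gene on the same strand, which had 17.9, 18.2 and 18.5 RPM in Anillin 4N, 19.2, 20.6 and 20.7 RPM in Anillin 2N, 16.8, 16.7 and 18.6 RPM in control 4N and 18.8, 15.96 and 18.95 RPM in control 2N. In the groups other than control 4N that level came to most of the CENPA value. With the reads of SLC35F6 subtracted, a setting chosen after seeing the data, CENPA stood at 8.18, 9.78 and 10.01 RPM in Anillin 4N, against 57.5, 46.8 and 50.2 RPM in control 4N. The subtracted level was 3.49, 3.67 and 3.15 RPM in Anillin 2N, against 8.44, 5.25 and 6.61 RPM in control 2N. The log2 change between the 4N groups was then -2.40 ± 0.13 (adjusted p = 1.67e-11). How the authors assigned reads in both spans was not tested, so the size of the CENPA change is uncertain between these values. PMF1 and PMF1-BGLAP, another pair on the same strand, had nearly equal reads in every library. They had 615 and 643 in Anillin 4N replicate 1, and 1787 and 1852 in control 2N replicate 3.

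The 2 members of the Mis18 complex, which readies centromeres for new CENP-A, differed in size of change. OIP5 (MIS18-beta) changed by -2.33 ± 0.17 and MIS18A by -1.43 ± 0.10 on the log2 scale. In 2N cells OIP5 averaged 1.56 ± 0.336 RPM in Anillin 2N, against 4.19 ± 1.27 RPM in control 2N (SD, n = 3 each). The OIP5 span shares 470 bases with the antisense gene OIP5-AS1, and whether the counting used strand is not stated. CENPB, whose protein binds a short motif in centromeric satellite DNA, had 60.3, 58.4 and 65.9 RPM in the Anillin 4N libraries, against 91.5, 71.97 and 93.2 RPM in control 4N. In 2N cells CENPB had 57.9, 53.7 and 59.1 RPM in the Anillin 2N libraries, against 60.9, 47.9 and 63.6 RPM in control 2N, which overlap. The Anillin 4N libraries of CENPB lay below all of control 4N, with a log2 change of -0.47 ± 0.10 (adjusted p = 0.000517).

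All 14 members of the constitutive network fell between the 4N groups, by a median log2 change of -1.47. Within it the sizes differed from -2.53 for CENPI to -0.30 for CENPT. CENPI, of the H-I-K-M subcomplex, had 7.64, 8.68 and 9.06 RPM in the Anillin 4N libraries, against 55.3, 48.3 and 50.3 RPM in control 4N. In 2N cells CENPI had 4.92, 4.58 and 5.46 RPM in the Anillin 2N libraries, against 13.6, 8.51 and 11.7 RPM in control 2N. Only control 4N stood high for CENPI, and the log2 change between the 4N groups was -2.53 ± 0.12 (adjusted p = 4.42e-12). Its partners CENPM (-2.13 ± 0.16), CENPK (-1.59 ± 0.12) and CENPH (-1.43 ± 0.11) fell by less. Of the O-P-Q-U group, which helps to recruit the kinase PLK1, CENPU changed by -2.18 ± 0.12, CENPO by -1.64 ± 0.09, CENPP by -1.45 ± 0.12 and CENPQ by -1.14 ± 0.11. CENPN (-1.79 ± 0.08) and CENPL (-1.497 ± 0.10), which form a pair that reads CENP-A nucleosomes, also fell.

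CENPC, the long protein that ties CENP-A nucleosomes to the MIS12 complex, changed by -0.46 ± 0.08 on the log2 scale. The histone-fold members split: CENPW fell by 1.42 and CENPX by 0.70 on the log2 scale, and CENPT by 0.30. CENPT, a second anchor for the NDC80 complex, had 33.00, 37.03 and 37.9 RPM in the Anillin 4N libraries, against 46.3, 40.9 and 45.5 RPM in control 4N. Among 2N cells CENPT had 33.6, 32.8 and 34.01 RPM in the Anillin 2N libraries, against 30.8, 27.7 and 27.6 RPM in control 2N. Here all 3 Anillin 2N libraries lay above all 3 control 2N libraries, while Anillin 4N lay below control 4N (-0.30 ± 0.07, adjusted p = 0.001). The CENPT span shares 2114 bases with THAP11 on the opposite strand, and also overlaps TSNAXIP1 and NUTF2 there. THAP11 averaged 19.3 RPM in Anillin 4N, 16.6 in Anillin 2N, 20.4 in control 4N and 15.3 in control 2N. Whether reads of these genes were counted for CENPT was not tested.

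**Figure D2:**
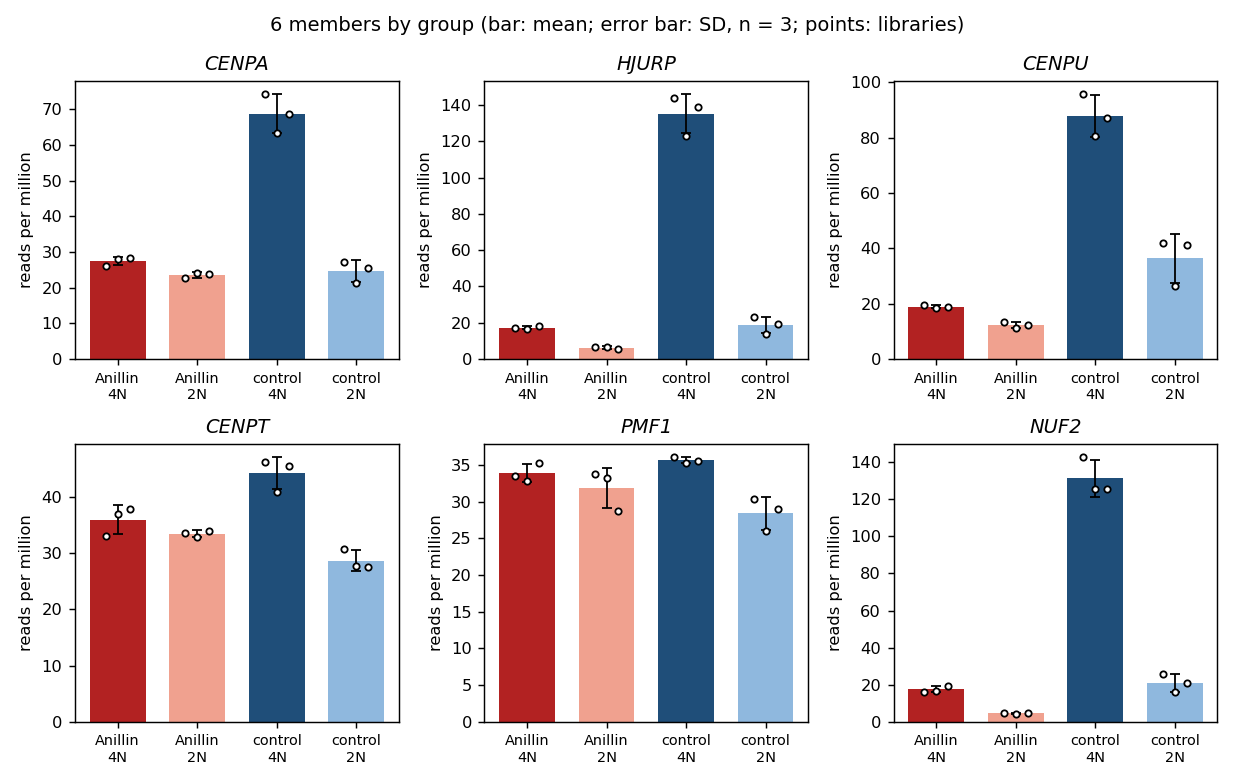
RPM of 6 members by group, with bars for the mean, error bars for the SD (n = 3) and points for the libraries. For CENPA, HJURP, CENPU and NUF2 the control 4N bar is more than 2 times as high as any other, while PMF1 has 25.96 to 36.1 RPM across the 12 libraries.

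Of the MIS12 complex, which bridges inner and outer kinetochore, 3 of 4 genes fell. DSN1 had 8.13, 9.29 and 9.80 RPM in the Anillin 4N libraries, against 28.9, 24.5 and 25.99 RPM in control 4N. In 2N cells DSN1 had 9.69, 8.64 and 8.83 RPM in the Anillin 2N libraries, against 18.1, 13.4 and 17.8 RPM in control 2N. Both Anillin groups lay at the same height, below both control groups, and the log2 change between the 4N groups was -1.49 ± 0.10 (adjusted p = 7.72e-10). MIS12 changed by -0.96 ± 0.07 and NSL1 by -0.37 ± 0.06. PMF1 had 33.5, 32.8 and 35.3 RPM in the Anillin 4N libraries, against 36.1, 35.3 and 35.5 RPM in control 4N. Its log2 change was -0.07 ± 0.07 (adjusted p = 0.403), with 1 Anillin 4N library inside the control 4N range. In 2N cells PMF1 had 33.7, 33.2 and 28.8 RPM in the Anillin 2N libraries, against 30.3, 25.96 and 29.03 RPM in control 2N, also overlapping. In GENCODE 29 PMF1 lies inside the readthrough gene PMF1-BGLAP on the same strand, which had nearly the same read numbers (643 against 615 for PMF1 in Anillin 4N replicate 1), so the 2 cannot be told apart.

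KNL1, the scaffold for the checkpoint proteins BUB1 and BUBR1, had 18.9, 17.8 and 21.03 RPM in the Anillin 4N libraries, against 124, 107 and 116 RPM in control 4N. In 2N cells KNL1 had 8.34, 6.71 and 5.99 RPM in the Anillin 2N libraries, against 21.4, 15.3 and 18.00 RPM in control 2N. ZWINT, its partner that brings in the RZZ complex, had 15.8, 17.9 and 19.7 RPM in the Anillin 4N libraries, against 111, 92.8 and 105 RPM in control 4N. Between the 4N groups the log2 change was -2.56 ± 0.11 (adjusted p = 1.13e-12) for KNL1 and -2.500 ± 0.11 (adjusted p = 2.16e-12) for ZWINT, with no overlap of libraries. In 2N cells ZWINT had 10.8, 9.87 and 11.5 RPM in the Anillin 2N libraries, against 35.8, 24.6 and 35.7 RPM in control 2N, so that Anillin 4N lay below control 2N for ZWINT and within it for KNL1.

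All 4 genes of the NDC80 complex, the main microtubule coupler, fell. NUF2, which with NDC80 forms the microtubule-binding head, had 16.3, 16.7 and 19.5 RPM in the Anillin 4N libraries, against 143, 126 and 126 RPM in control 4N. In 2N cells NUF2 had 4.96, 4.43 and 4.53 RPM in the Anillin 2N libraries, against 25.8, 15.99 and 21.1 RPM in control 2N. The Anillin 2N libraries were the lowest, Anillin 4N stood near control 2N, and control 4N stood apart. The log2 change of NUF2 between the 4N groups was -2.87 ± 0.12 (adjusted p = 5.40e-13), and that of NDC80 was -2.82 ± 0.11. SPC25, of the pair that anchors the complex to the inner kinetochore, had 6.27, 6.08 and 6.24 RPM in the Anillin 4N libraries, against 51.8, 42.6 and 45.9 RPM in control 4N. In 2N cells SPC25 had 2.98, 2.67 and 3.20 RPM in the Anillin 2N libraries, against 11.2, 7.52 and 9.13 RPM in control 2N. For SPC25 the Anillin 4N libraries thus lay below all of control 2N as well. SPC24, the other of the pair, had 9.87, 8.90 and 9.93 RPM in the Anillin 4N libraries, against 42.8, 33.02 and 39.7 RPM in control 4N. The log2 change was -2.81 ± 0.11 (adjusted p = 4.08e-13) for SPC25 and -1.95 ± 0.14 (adjusted p = 9.92e-10) for SPC24, and neither gene's 4N groups overlapped. In 2N cells SPC24 had 5.46, 4.53 and 3.86 RPM in the Anillin 2N libraries, against 11.8, 7.77 and 11.6 RPM in control 2N, again without overlap.

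SKA1 and SKA3, of the complex that strengthens the hold on depolymerising microtubule ends, changed by -2.63 ± 0.15 and -2.31 ± 0.12, and SKA2 by -0.95 ± 0.06. SKA1 had 4.69, 5.97 and 5.47 RPM in the Anillin 4N libraries, against 38.2, 32.4 and 37.2 RPM in control 4N. SKA2 had 43.9, 43.00 and 44.2 RPM in the Anillin 4N libraries, against 88.4, 82.3 and 83.8 RPM in control 4N. All 3 Anillin 4N libraries of SKA1 and SKA2 were below control 4N. In 2N cells SKA1 had 2.50, 2.11 and 1.82 RPM in the Anillin 2N libraries, against 9.51, 5.50 and 8.14 RPM in control 2N. In 2N cells SKA2 had 38.9, 42.3 and 39.8 RPM in the Anillin 2N libraries, against 52.3, 45.3 and 52.5 RPM in control 2N. For both genes every Anillin 2N library lay below every control 2N library. CENPF, a large microtubule-binding protein of the outer corona, had 95.7, 87.3 and 94.3 RPM in the Anillin 4N libraries, against 601, 532 and 583 RPM in control 4N. In 2N cells CENPF had 24.4, 24.9 and 27.4 RPM in the Anillin 2N libraries, against 101, 76.6 and 86.2 RPM in control 2N. Its log2 change between the 4N groups was -2.62 ± 0.08 (adjusted p = 2.23e-14). SPDL1 (Spindly), the adaptor that links dynein to kinetochores, had 46.3, 44.2 and 45.4 RPM in the Anillin 4N libraries, against 145, 128 and 132 RPM in control 4N, a log2 change of -1.57 ± 0.07 (adjusted p = 2.12e-12). In 2N cells SPDL1 had 32.4, 35.2 and 32.5 RPM in the Anillin 2N libraries, against 46.4, 36.8 and 43.2 RPM in control 2N. For both genes control 4N stood highest and Anillin 2N lowest, each apart from every other library, while Anillin 4N overlapped control 2N.

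Promoter windows are shown for 4 members that fell, HJURP, CENPA, NUF2 and SPC25, and for NSL1, the member with the smallest change that passed outside CENPT. Of the motifs described below, the first 4 windows all hold a CHR and an E2F match. They differ in CCAAT boxes, with 4 in HJURP, 2 each in CENPA and SPC25 and none in NUF2. RefSeq windows on GRCh38.p14, from 250 bases before to 50 bases after the gene start, were found for 29 of the 34 members. Capitals mark 3 motifs searched on both strands: the cell cycle homology region (CHR) of late cell cycle promoters as TTTGAA and also as TTCGAA, the CCAAT box that NF-Y reads, and E2F sites in 4 forms, which are TTCCCGC and also TTCGCGC, then also TTGCCGC and lastly also TTGGCGC. The windows are chr2:233854486-233854785 on the minus strand (HJURP), chr2:26785806-26786105 on the plus strand (CENPA), chr1:163321704-163322003 on the plus strand (NUF2), chr2:168890381-168890680 on the minus strand (SPC25) and chr1:212791728-212792027 on the minus strand (NSL1), each written 5′ to 3′ along the gene.
HJURP: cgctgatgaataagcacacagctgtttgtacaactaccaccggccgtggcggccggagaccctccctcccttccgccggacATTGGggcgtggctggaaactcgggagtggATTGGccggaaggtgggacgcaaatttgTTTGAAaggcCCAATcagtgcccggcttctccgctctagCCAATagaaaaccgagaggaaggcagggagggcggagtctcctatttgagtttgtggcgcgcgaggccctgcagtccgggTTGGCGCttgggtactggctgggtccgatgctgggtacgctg
CENPA: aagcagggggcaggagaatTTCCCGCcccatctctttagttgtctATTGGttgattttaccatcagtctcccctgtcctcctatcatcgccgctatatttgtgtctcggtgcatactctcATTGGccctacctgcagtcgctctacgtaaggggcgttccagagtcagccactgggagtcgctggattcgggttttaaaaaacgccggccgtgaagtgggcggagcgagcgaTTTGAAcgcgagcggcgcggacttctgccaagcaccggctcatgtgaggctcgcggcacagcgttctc
NUF2: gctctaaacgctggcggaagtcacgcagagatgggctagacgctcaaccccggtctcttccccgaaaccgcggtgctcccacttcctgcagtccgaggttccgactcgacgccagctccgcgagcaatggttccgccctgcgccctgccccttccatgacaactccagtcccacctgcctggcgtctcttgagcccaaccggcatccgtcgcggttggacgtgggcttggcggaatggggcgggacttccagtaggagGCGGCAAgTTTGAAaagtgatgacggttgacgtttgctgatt
SPC25: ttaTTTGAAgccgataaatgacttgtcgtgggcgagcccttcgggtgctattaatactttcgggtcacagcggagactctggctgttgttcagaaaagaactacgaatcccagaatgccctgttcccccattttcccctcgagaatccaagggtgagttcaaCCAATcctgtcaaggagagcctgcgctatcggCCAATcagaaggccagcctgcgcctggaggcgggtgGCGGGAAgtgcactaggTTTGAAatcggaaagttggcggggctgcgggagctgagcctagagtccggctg
NSL1: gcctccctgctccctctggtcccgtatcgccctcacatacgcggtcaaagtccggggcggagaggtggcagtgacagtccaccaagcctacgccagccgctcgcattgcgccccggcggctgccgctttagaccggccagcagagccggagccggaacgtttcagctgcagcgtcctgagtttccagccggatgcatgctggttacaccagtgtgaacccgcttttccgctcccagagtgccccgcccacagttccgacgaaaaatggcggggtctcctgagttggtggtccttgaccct

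HJURP held a CHR motif 111 bases before its start with CCAAT boxes on either side of it, while CENPA had one 18 bases before the start and SPC25 had one 247 and one 3 bases before it. In NUF2 the CHR letters began at base 17 after the start, next to an E2F match, and NSL1 held none of the 3 motifs. A CHR motif was present in 15 of 29 member windows (51.7%), against 16.6% of 27305 RefSeq promoter windows. A CCAAT box was present in 18 members (62.1%, against 35.7%) and an E2F match in 14 (48.3%, against 13.1%). The 15 members with a CHR motif had a median log2 change between the 4N groups of -2.33, and the 14 without had -1.05. For the CCAAT box the medians were -1.58 with (18 members) and -1.64 without (11), and for E2F -1.99 with (14) and -1.49 without (15). CHR exceptions ran both ways: CENPC held the motif and changed by -0.46, and CENPI held none of the 3 motifs in its window and changed by -2.53. Of the other members with none of the 3 motifs, DSN1 changed by -1.49, CENPP by -1.45, NSL1 by -0.37 and CENPT by -0.30. These are descriptions of letters in a window and of medians, with no test.

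Within control cultures all 34 members were higher in 4N cells, against 21.3% of all genes tested. 24 of them were at least 2-fold higher, against 1.97%. The largest rises were those of HJURP (2.85 ± 0.13), CENPF (2.70 ± 0.08), NDC80 (2.68 ± 0.11), NUF2 (2.64 ± 0.12) and KNL1 (2.64 ± 0.11). The smallest were those of PMF1 (0.32 ± 0.07, adjusted p = 0.00103), NSL1 (0.33 ± 0.06, adjusted p = 0.000517) and CENPC (0.39 ± 0.08, adjusted p = 0.000453). By role, the median log2 change was 2.46 for the NDC80 complex, 1.22 for the constitutive network and 0.46 for the MIS12 complex. Both this comparison and the one between the 4N groups use the control 4N libraries, so like sizes in them are not independent.

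Within Anillin siRNA cultures fewer members differed between the fractions: 18 of 34 were higher in 4N than in 2N cells, none was lower (background 2.19%), and 16 did not pass. Of all genes tested, 3.38% were higher. At least 2-fold higher were 8 members, against 0.48% of all genes tested. Outer kinetochore genes made up 10 of the 18, but SKA2 (0.12 ± 0.06, adjusted p = 0.325) and all 4 MIS12 complex genes did not pass. All 4 NDC80 complex genes rose, led by NUF2 (1.81 ± 0.12, adjusted p = 4.43e-09) and NDC80 (1.70 ± 0.11, adjusted p = 6.42e-09). CENPF (1.83 ± 0.08, adjusted p = 6.07e-11), KNL1 (1.40 ± 0.11), SKA1 (1.16 ± 0.15), SKA3 (1.14 ± 0.12), ZWINT (0.70 ± 0.11) and SPDL1 (0.44 ± 0.07) rose as well. HJURP (1.39 ± 0.13) and OIP5 (1.19 ± 0.17) rose among the deposition genes, while MIS18A was at 0.11 ± 0.10 (adjusted p = 0.579).

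Of the constitutive network 6 of 14 rose, none of them 2-fold: CENPW (0.81 ± 0.12), CENPI (0.71 ± 0.12), CENPM (0.69 ± 0.16), CENPH (0.66 ± 0.11), CENPU (0.60 ± 0.12) and CENPN (0.53 ± 0.08). CENPM did not pass (adjusted p = 0.0563, 0.0625 and 0.104) once the first or the third library of Anillin 4N, or the third of Anillin 2N, was left out. On the deposited RPKM, where 30 members were tested, 11 rose, and CENPH, CENPI, CENPM, CENPU, OIP5, SKA1 and SPC25 did not pass (adjusted p = 0.0509 for CENPH to 0.39 for SPC25). None of the 4 MIS12 complex genes passed, with log2 changes between 0.0002 and 0.09. CENPA was at 0.22 ± 0.08 (adjusted p = 0.135), and with the reads of SLC35F6 subtracted at 1.32 ± 0.13 (adjusted p = 9.22e-07). G2 and mitosis markers summed to 422 to 462 RPM in Anillin 4N, against 138 to 145 RPM in Anillin 2N, and what share of these rises goes with them was not tested.

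**Figure D3:**
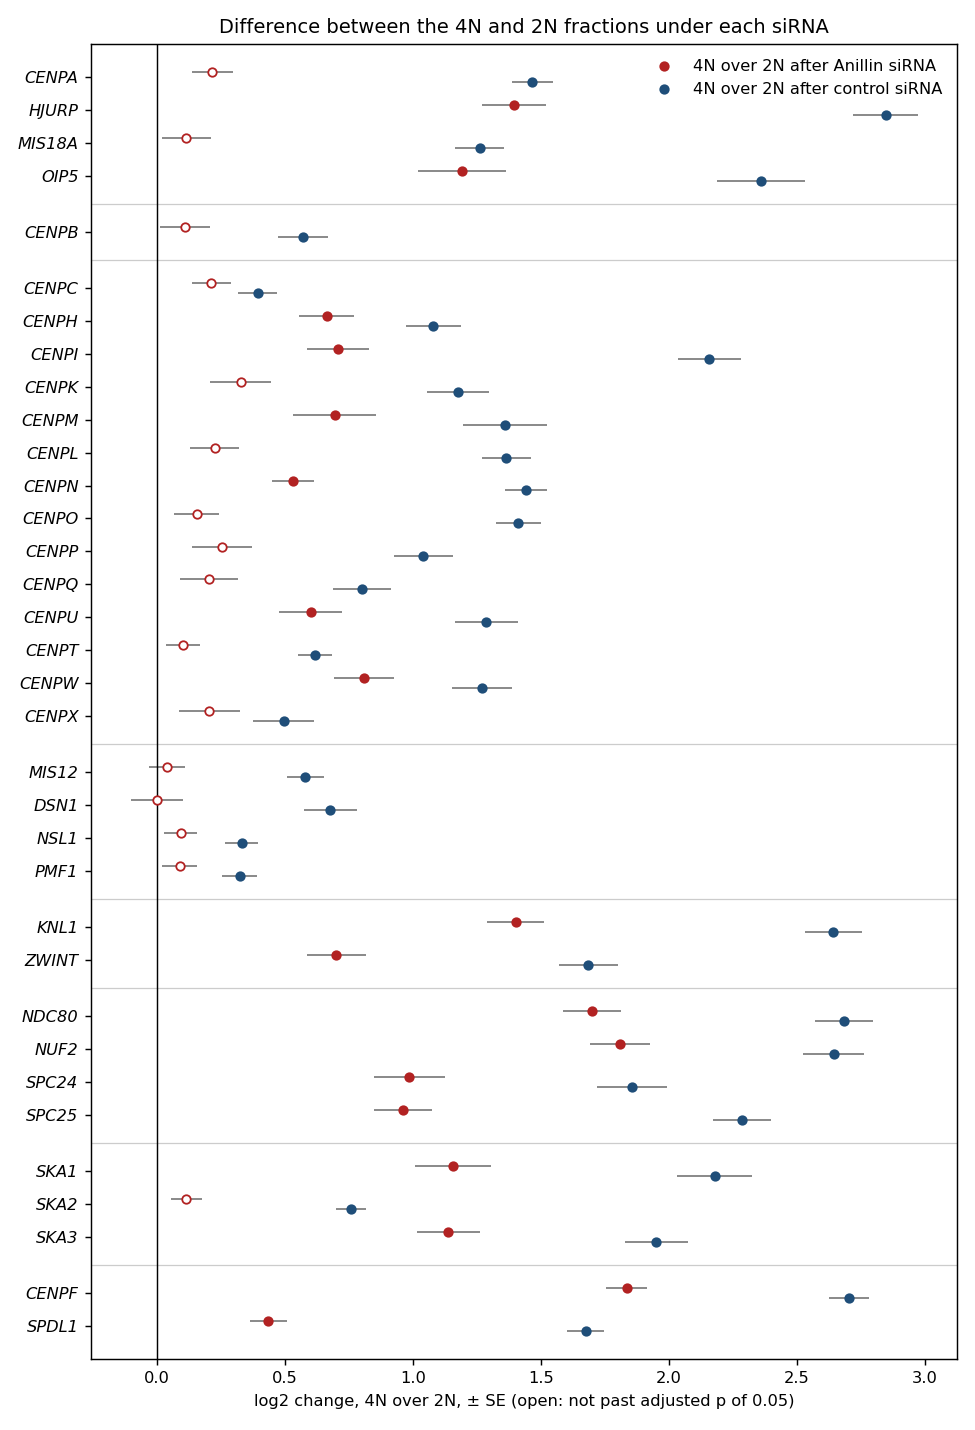
Log2 change (± SE) of 4N over 2N cells for each member, after Anillin siRNA (red) and after control siRNA (blue), with filled points where adjusted p is below 0.05. Every red point lies left of its blue partner, and the gap is widest for HJURP and CENPI.

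The difference between the fractions was itself compared between the siRNAs, as an interaction term. In 27 of 34 members the 4N over 2N difference was smaller after Anillin siRNA, against 10.6% of all genes tested, and in none was it larger, against 7.94%. The 3 largest interactions were those of HJURP (-1.45 ± 0.18, adjusted p = 1.88e-05), CENPI (-1.45 ± 0.17, adjusted p = 1.29e-05) and SPC25 (-1.32 ± 0.16, adjusted p = 1.49e-05). With SLC35F6 reads subtracted CENPA would lead them, at -1.54 ± 0.18 (adjusted p = 9.87e-06), against -1.25 ± 0.11, adjusted p = 4.81e-07 as counted. CENPB lost its call in 10 of 20 alternative settings. CENPC, CENPH, CENPM, CENPW, CENPX, NSL1 and PMF1 did not pass, with values from -0.67 for CENPM to -0.18 for CENPC. 

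Among 2N cells most members were also lower after Anillin siRNA: 29 of 34 fell relative to control 2N, against 17.0% of all genes tested, and 15 were at least 2-fold lower, against 0.96%. The largest falls were those of NUF2 (-2.04 ± 0.12, adjusted p = 6.05e-10), NDC80 (-1.84 ± 0.11, adjusted p = 1.38e-09), CENPF (-1.75 ± 0.08, adjusted p = 2.97e-11) and SKA1 (-1.61 ± 0.15, adjusted p = 1.84e-07). In the constitutive network CENPU (-1.499 ± 0.12) and CENPM (-1.47 ± 0.16) fell most, and CENPT was the one member that rose (0.22 ± 0.07, adjusted p = 0.0168; background for a rise 12.6%). The CENPT call was lost without Anillin 2N replicate 3 or control 2N replicate 3 (adjusted p = 0.0526 and 0.0688). The part of reads from genes that overlap CENPT, such as THAP11, in this rise was not tested. CENPA (-0.06 ± 0.08, adjusted p = 0.647), CENPB (-0.0048 ± 0.10, adjusted p = 0.979), NSL1 (-0.14 ± 0.06, adjusted p = 0.128) and PMF1 (0.16 ± 0.07, adjusted p = 0.0857) did not pass. CENPA with SLC35F6 reads subtracted was at -0.86 ± 0.13 (adjusted p = 4.05e-05). G2 and mitosis markers were lower too, with sums of 138 to 145 RPM in Anillin 2N, against 392 to 556 RPM in control 2N. Of 14 G1/S and replication genes 13 passed as lower, and the sums of all 14 were 353 to 376 RPM against 592 to 901 RPM. The part of these markers and genes in the result was not tested.

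**Figure D4:**
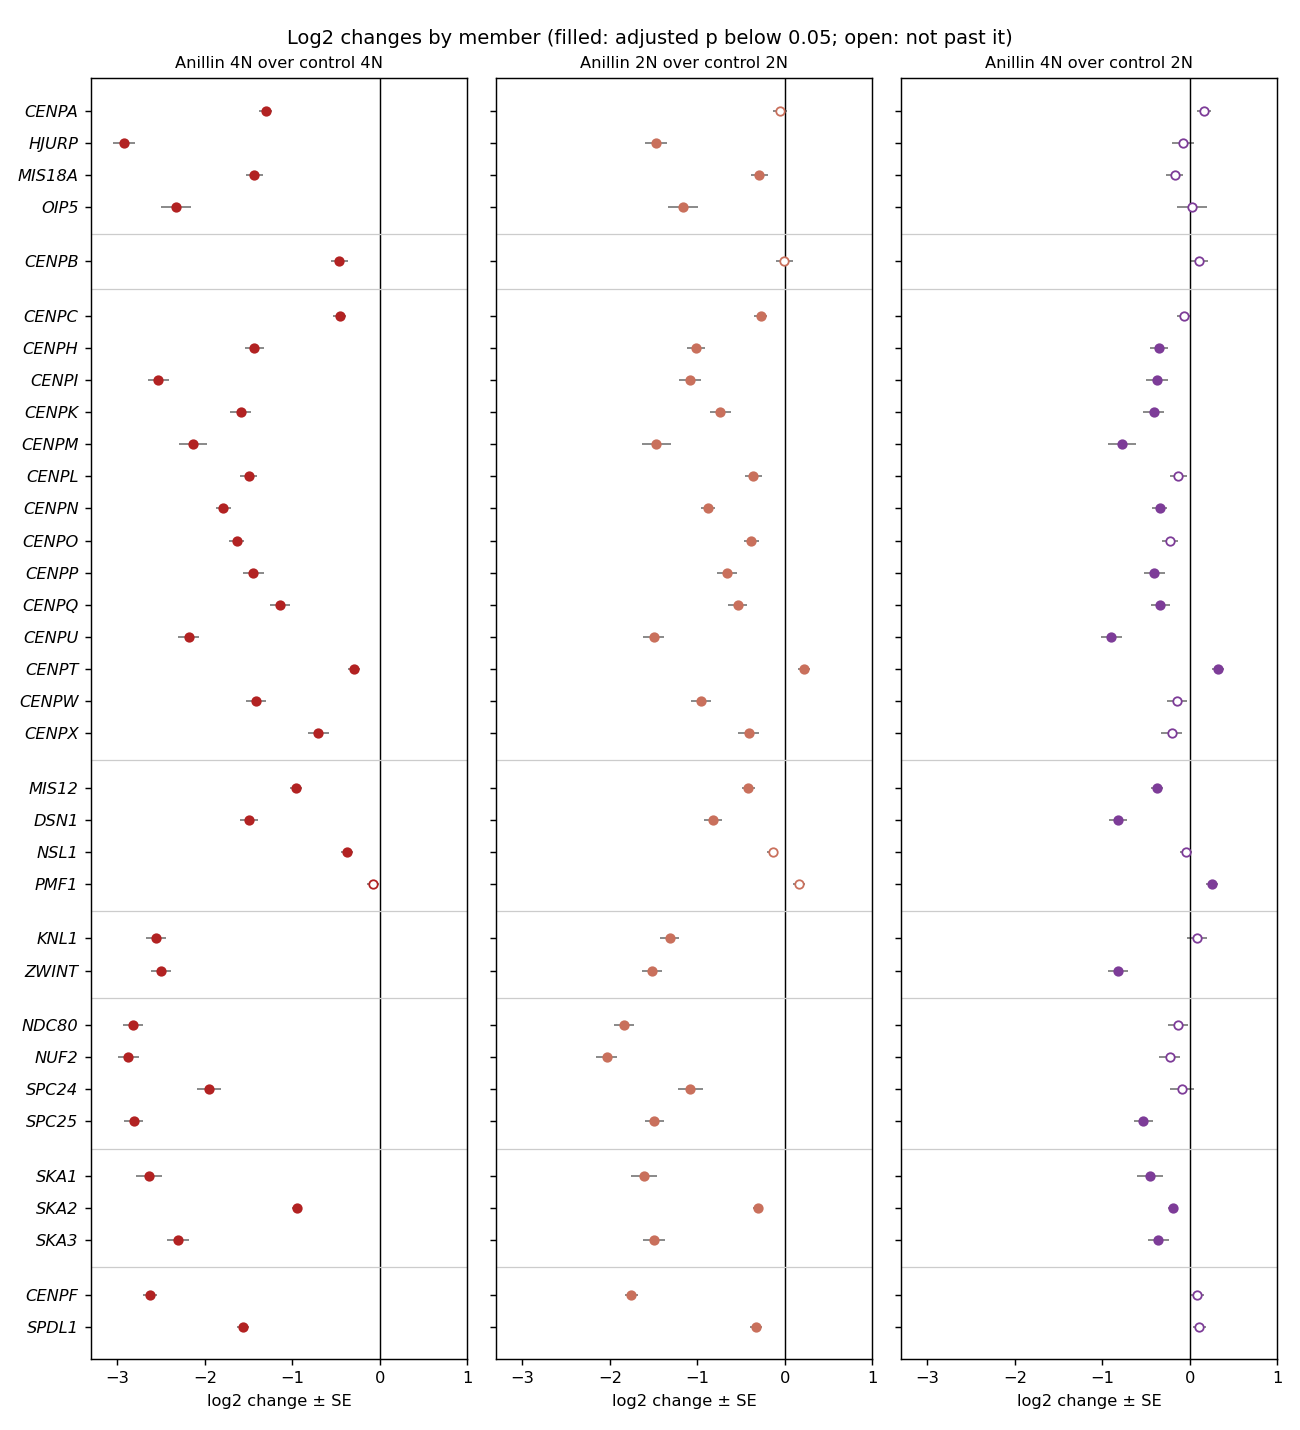
Log2 changes (± SE) of each member in Anillin 4N over control 4N, Anillin 2N over control 2N and Anillin 4N over control 2N, with filled points where adjusted p is below 0.05. The first panel has 33 filled points, all left of 0, while points of the third lie between -0.90 and 0.32.

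The next comparison set Anillin 4N cells against control 2N cells. Of 34 members, 15 were lower in Anillin 4N, 2 higher and 17 did not pass. Over all genes tested 17.7% were lower and 14.4% higher. CENPU had the largest fall (-0.90 ± 0.12, adjusted p = 1.71e-05), at 18.9 ± 0.565 RPM in Anillin 4N, against 36.4 ± 8.80 RPM in control 2N (SD, n = 3 each). DSN1 (-0.82 ± 0.10, adjusted p = 7.32e-06), ZWINT (-0.82 ± 0.11, adjusted p = 2.37e-05) and CENPM (-0.77 ± 0.16, adjusted p = 0.00119) followed. In the constitutive network 8 of 14 were lower and CENPT, whose span overlaps THAP11, was higher (0.32 ± 0.07, adjusted p = 0.00103).

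All 3 SKA complex genes were lower, SKA1 (-0.46 ± 0.15, adjusted p = 0.0232), SKA3 (-0.36 ± 0.12, adjusted p = 0.0329) and SKA2 (-0.19 ± 0.06, adjusted p = 0.0204), and so were DSN1 and MIS12 of the 4 MIS12 complex genes. The libraries of SKA1 and SKA3 overlapped between these groups. Both lost the call without a filter, on the deposited RPKM and without Anillin 4N replicate 1. SKA3 also lost it with limma-voom, with the 2 groups fitted alone and without Anillin 4N replicate 2. SKA2 lost it with limma-voom and without Anillin 4N replicate 2. None of the 4 deposition genes, nor CENPB, CENPF or SPDL1, passed. Of the NDC80 complex SPC25 alone was lower (-0.53 ± 0.11, adjusted p = 0.00134), while NDC80, NUF2 and SPC24 were at -0.14, -0.23 and -0.09. CENPF (0.08 ± 0.08, adjusted p = 0.47), KNL1 (0.08 ± 0.11, adjusted p = 0.604), HJURP (-0.08 ± 0.13, adjusted p = 0.658) and OIP5 (0.03 ± 0.17, adjusted p = 0.917) did not pass. PMF1 was higher (0.25 ± 0.07, adjusted p = 0.0086). CENPA with SLC35F6 reads subtracted was higher as well, at 0.45 ± 0.13 (adjusted p = 0.01), against 0.16 ± 0.08 (adjusted p = 0.134) as counted. The mean levels of the 4 groups stood in the order Anillin 2N, Anillin 4N, control 2N, control 4N, from low to high, in 27 members. Control 2N stood below Anillin 4N but above Anillin 2N in 5 members, and lowest in 2, CENPT and PMF1. These orders are ranks of means without a test, and the share of all genes in each order was not computed. Between Anillin 4N and control 2N 17 members did not pass, and between the Anillin fractions 16 did not.

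G2 and mitosis markers summed to 422 to 462 RPM in Anillin 4N, against 392 to 556 RPM in control 2N, and the 14 G1/S and replication genes to 414 to 459.7 RPM, against 592 to 901 RPM; their part was not tested. The counts of this comparison moved most with single control 2N libraries, and fell to 12 members without Anillin 4N replicate 2. Control 2N replicate 2 was the lowest of its group for 30 of 34 members, and had 392 RPM of G2 and mitosis markers, against 556 and 484 RPM in replicates 1 and 3. Control 4N replicate 2 was likewise the lowest of its group for 28 members. It had 3106 RPM of these markers, against 3473 and 3352 RPM in replicates 1 and 3. How often these libraries were lowest over all genes was not computed. Shares of all genes tested were not computed for fits with a library left out, so their counts have no background here. Without control 2N replicate 2, 23 members differed between Anillin 4N and control 2N, 21 of them lower. HJURP, NDC80, NUF2, CENPO, CENPW and CENPX then passed as lower. Without replicate 1 or 3 of control 2N, 10 members differed, 7 and 8 of them lower. CENPH, CENPI, CENPK, CENPP, CENPQ, SKA1, SKA2 and SKA3 each lost the call in 1 or both of those fits, while CENPM, CENPN, CENPT, CENPU, DSN1, MIS12, PMF1, SPC25 and ZWINT held it in every fit with 1 library left out.

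A second list of 33 genes that act beside these members (the RZZ complex, checkpoint kinases, the chromosomal passenger complex, shugoshins and motors) was read in the same fit. Between the 4N groups 28 of 33 fell and none rose, against 28.1% and 24.5% of all genes tested, with a median log2 change of -1.61. The passenger proteins CDCA8 (-2.96 ± 0.11) and BIRC5 (-2.92 ± 0.12) and the shugoshin SGO1 (-2.81 ± 0.12) had the largest falls. BOD1, CLASP1, CLASP2, NDEL1 and RSF1 did not pass, with log2 changes from -0.04 for BOD1 to 0.10 for RSF1. With quantile scaling RSF1, CLASP1 and CLASP2 passed as higher (0.23, 0.17 and 0.16), as they did on recovered reads with limma-voom.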

How the data were processed

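The authors deposited a table of RPKM values for the 12 libraries. The submitters' processing notes list CASAVA 1.8.2, TopHat2, edgeR and hg19 but say nothing of what each did. Not given in the sources used here: the annotation, the counting tool and its strand setting. The kit was a stranded one for mRNA, per the labels, although the RNA is also called ribo-depleted. With GENCODE 29 spans, values of 29237 of 38571 genes above 0 came out as whole reads, within 0.01 read. The divisors were the library total, a scaling of 0.951 to 1.04 and the gene's genomic span. For the other 9334 a common divisor gave the smallest whole reads that fitted, so their lengths are implied. For CENPC this length was 73804 bases, against a span of 76859. Of these genes 6523 were above 0 in all libraries, and 100% of those 6523 had a whole-base length. The rest were checked less. RPM values were the whole reads per 1000000 over the library total and that scaling. Genes with at least 0.5 RPM in 3 of 12 libraries (19591) were fitted with limma-trend (limma 3.58.1, R 4.3.3) on log2(RPM + 0.5), 1 mean per group, tested on simulated data first. Adding 0.5 to RPKM by span would weigh on long genes, so that fit was an alternative, as were pseudocounts of 0.1 and 1, other filters, limma-voom, other scalings, 2 groups fitted alone and single libraries left out. Tables and figures used pandas 2.3.3, numpy 2.4.6 and matplotlib 3.10.9. Values in every library are given, per role, for the largest and smallest change between the 4N groups, for CENPA, for members not called there and for the 3 largest interactions. Members, lists and tests were chosen with earlier results of these data known. Of the members, 16 overlap another gene with at least 100 reads in all, 4 on the same strand, and reads of such genes may be shared. Gene coordinates are those of GENCODE 29 on GRCh38, not the build the submitters name. Libraries of a group differed by more than sampling noise, and each counted as a sample.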

Additional observations from a re-analysis of the deposited data

Results flagged for a closer look

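In 27 of 34 members the difference between the 4N and 2N fractions was not the same under both siRNAs, by a test of the difference itself (the interaction term in limma, against 10.6% of all genes tested with a smaller and 7.94% with a larger difference; adjusted p = 1.61e-07 for SPDL1 to 0.0252 for CENPB). Each value is the log2 difference of 4N over 2N after Anillin siRNA minus that after control siRNA, and each was below 0, so the gap between fractions was smaller after Anillin siRNA. The CENP-A deposition genes had -1.45 (HJURP), -1.25 (CENPA), -1.17 (OIP5) and -1.14 (MIS18A). The constitutive network had -1.45 (CENPI), -1.25 (CENPO), -1.14 (CENPL), -0.91 (CENPN), -0.85 (CENPK), -0.79 (CENPP), -0.69 (CENPU), -0.60 (CENPQ) and -0.52 (CENPT). The outer kinetochore complexes had -1.32 (SPC25), -1.24 (KNL1), -0.98 (ZWINT), -0.98 (NDC80), -0.87 (SPC24), -0.83 (NUF2), -0.68 (DSN1) and -0.54 (MIS12). The SKA complex and the corona proteins had -1.24 (SPDL1), -1.02 (SKA1), -0.87 (CENPF), -0.81 (SKA3) and -0.64 (SKA2). CENPB had -0.46, a call lost in 10 of its 20 alternative settings (adjusted p = 0.0541 to 0.118). HJURP went with log2 changes of 1.39 after Anillin siRNA and 2.85 after control siRNA, and CENPO with 0.16 and 1.41. Groups of 3 libraries are too small for the test of single outlying libraries.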

How the results depend on the processing

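Of 3212 recomputed log2 changes of the 34 members, 3095 kept their side of the threshold, 84 lost a call, 33 gained one and 0 called values changed sign. None of the 507 values between the 4N groups, nor of the 507 between the control fractions, crossed the threshold. On the deposited RPKM, where a gene is divided by its genomic span and 0.5 is added, 4 members were not tested, and 11 members differed between the Anillin fractions (18 on RPM) and 9 between Anillin 4N and control 2N (17 on RPM). Without a filter 11 members differed between Anillin 4N and control 2N, where more genes were tested. With 1 library left out, the number of members called was 10 to 23 for Anillin 4N against control 2N, 17 to 18 between the Anillin fractions, 27 to 30 for Anillin 2N against control 2N, 26 to 31 for the interaction, 33 in each fit between the 4N groups and 34 in each between the control fractions. Shares of all genes tested were computed for the main fit alone, so the counts of the other fits have no background beside them. CENPA gained calls once SLC35F6 reads were subtracted. MIS18A and CENPX lost their calls among 2N cells in 7 and 5 of the settings, and CENPB its interaction in 10. The cause was not tested. No paired analysis was made: the sample numbers in the labels run from 10 to 21 and no number is shared between groups. Pairing by the order of the numbers was not tested, and the fits treat the fractions as independent. By that order, replicate 1 was highest for 30 members in control 4N and 28 in control 2N. Replicate 2 was lowest for 28 and 30. After Anillin siRNA, replicate 3 was highest for 21 members in 4N and replicate 1 for 15 in 2N. The same counts over all genes were not made. Depth limits the members with few reads most: the lowest number for a member in 1 library was 28 reads, for OIP5.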
